A study of Mus musculus with 3 samples.

Results

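Heat shock proteins and folding chaperones bind unfolded or newly made proteins, help them to fold, or pass them on for degradation. HSP70 proteins hold unfolded stretches with the help of J-domain partners and nucleotide exchange factors, HSP90 finishes signalling proteins with the help of cochaperones, and barrel-shaped chaperonins enclose whole proteins. In the lumen of the endoplasmic reticulum (ER), lectin chaperones, disulfide isomerases and prolyl isomerases act on secreted and membrane proteins. Photoreceptors load this machinery heavily, since they make large amounts of opsin and transducin and the TRiC chaperonin folds the transducin beta subunit.

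These genes were followed on 3 Affymetrix U74Av2 arrays of mouse neural retina. The sample descriptions of all 3 give Rp1-/- mice, which lack a photoreceptor axoneme protein, on a mixed background of 129/SvEv and C57BL/6, at 10 days after birth. Each array carried the RNA of a pool of 3 to 4 mice, and tissue was taken between 1 and 2 in the afternoon. No array of another genotype was used here, so every comparison below is between pools described as mutant retina, and the pools were numbered 1 to 3 as names only. Of the array titles, those of pools 2 and 3 name rp1 and that of pool 1 does not, so its genotype rests on its description alone, and every difference of pool 1 below is read with that limit. Nothing in the labels states that the pools came from separate animals, and the spread given below may be partly technical.

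Members were taken by gene symbol in the platform annotation: names that start with Hspa, Hspb, Hspd, Hspe, Hsph, Hsp90, Hsf, Dnaj, Cct with a digit, Pdia, Fkbp, Bag with a digit, Ppia, Ppib, Ppid or Stip1, and the genes Calr, Canx, Tcp1, P4hb and Hyou1. This gave 118 probe sets for 84 genes, of 12422 gene probe sets on the array. A probe set is the group of short probes that reads 1 transcript. No probe set with a single symbol was assigned to Ppia. Signals are scaled intensity units, and the signal of one probe set cannot be set against that of another as an amount of transcript.

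A background floor of 100.5, 124.8 and 120.4 units in pools 1, 2 and 3 was set from control probe sets with no mouse target. Of the 118 probe sets, 96 (81.4%) had a mean signal above the mean floor and are called measured, against 67.0% of all gene probe sets. They stand for 75 of the 84 genes, and 87 of the 96 were above the floor on all 3 arrays. The 9 genes with no measured probe set were Calr, Dnajb3, Dnajb5, Fkbp11, Hsf2, Hsf4, Hspa2, Hspb1 and Hyou1. Hspb1, the classical small heat shock protein, had signals of 93.1, 49.9 and 83.4 in pools 1, 2 and 3, all under the floor. The ER lectin chaperone gene Calr had 83.9, 52.8 and 33.9, also under the floor on every array. A signal under the floor gives only a bound, and says nothing on how well a probe set reads its transcript. Neither heat shock factor on the array was measured: Hsf2 had 60.1, 35.8 and 46.3 and Hsf4, the factor known from lens, 19.5, 29.4 and 105.3.

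Markers of the tissue named in the labels were found on every array, and the signals of lens markers differed widely between pools. All 7 rod photoreceptor markers with a named probe set were above the floor in every pool, and their summed signal was 58287.6, 77061.4 and 70799.7 in pools 1, 2 and 3. Of 11 lens markers with a probe set 10 were measured, and the summed signal of all 11 was 94104.1, 25081.3 and 202221.8. Most of the 10 are crystallin genes, and whether lens tissue gave these signals was not tested. The 4 blood markers with a probe set, of which 3 were measured, summed to 20603.2, 12823.3 and 10574.1. Skeletal muscle markers, with 3 of 4 measured, summed over all 4 to 618.1, 603.3 and 780.8. For pigment epithelium 4 of 6 markers were measured, and Tyr and Tyrp1 were not. All 6 together summed to 1517.1, 1599.7 and 2522.4. RNA integrity was read from 3′ over 5′ control signals, which gave 1.10, 1.40 and 1.63 for Actb. The same ratio was 0.82, 0.90 and 0.75 for Gapdh. The part of these differences in the results below was not tested, except where a value is given.

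Promoter sequences of 5 genes are shown as examples of the heat shock element and the ER stress response element, picked after the matches were seen, because the pools are compared on these genes below. They are from RefSeq (build GRCm38.p6), whose table held windows for 73 of the 84 genes, from 250 bases before to 50 bases after a start. Hspd1 and Hspe1 encode the mitochondrial chaperonin Hsp60 and its lid Hsp10 and are transcribed away from each other on chromosome 1. The 215 bases between their starts (chr1:55087933-55088147, plus strand) are shown with the matches to GAANNTTC or TTCNNGAA, the core of the heat shock element, in capitals. A second annotated Hspd1 start lies at 55088243, beyond the Hspe1 start.
Hspd1-Hspe1 interval: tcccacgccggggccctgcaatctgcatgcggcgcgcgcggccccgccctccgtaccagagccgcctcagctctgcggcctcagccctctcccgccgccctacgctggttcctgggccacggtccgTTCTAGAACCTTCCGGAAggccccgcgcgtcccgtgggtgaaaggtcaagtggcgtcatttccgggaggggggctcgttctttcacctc
The 3 matches overlap, so that they make 1 uninterrupted run of capitals.

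Dnajb6, a J-domain protein that keeps aggregation-prone proteins soluble, had 3 contiguous units of the element in the 250 bases before a start on chromosome 5 (chr5:29735648-29735897, plus strand), marked in capitals.
Dnajb6: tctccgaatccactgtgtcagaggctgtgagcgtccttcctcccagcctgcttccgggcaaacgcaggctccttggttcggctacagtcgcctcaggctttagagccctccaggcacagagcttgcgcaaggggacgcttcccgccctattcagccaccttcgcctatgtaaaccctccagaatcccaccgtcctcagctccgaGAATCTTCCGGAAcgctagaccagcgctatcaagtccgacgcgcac
Hspa5 (BiP, the HSP70 of the ER, chr2:34771840-34772089, plus strand) and Hsp90b1 (Grp94, the HSP90 of the ER, chr10:86705445-86705694, minus strand) are shown with the ER stress response element in capitals, which is a CCAAT box and a CCACG box 9 bases apart, on either strand.
Hspa5: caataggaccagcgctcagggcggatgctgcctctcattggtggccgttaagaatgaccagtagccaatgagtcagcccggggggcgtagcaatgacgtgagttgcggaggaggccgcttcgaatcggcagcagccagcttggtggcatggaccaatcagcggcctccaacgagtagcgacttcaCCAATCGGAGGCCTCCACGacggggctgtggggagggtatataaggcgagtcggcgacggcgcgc
Hsp90b1: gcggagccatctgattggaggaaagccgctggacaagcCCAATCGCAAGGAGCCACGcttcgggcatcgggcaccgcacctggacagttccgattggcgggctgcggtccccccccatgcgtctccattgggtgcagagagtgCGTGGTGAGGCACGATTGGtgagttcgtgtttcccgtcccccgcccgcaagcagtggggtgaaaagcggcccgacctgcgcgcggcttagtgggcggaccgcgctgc
Over whole windows of 300 bases, the ER element was found in 6 of the 73 genes (8.22%: Calr, Canx, Dnajc3, Hsp90b1, Hspa5 and Pdia6), against 0.137% of the 27025 genes in the table. Heat shock elements of 3 contiguous units were found in 4 (5.48%: Dnajb6, Hspd1, Hspe1 and Hsph1), against 0.662% of all genes. The shorter core was in 17 genes (23.3%), against 17.0% of all genes. These are matches of letters, counted on both strands, and Hspd1 and Hspe1 share theirs. The elements carry the names of the responses these genes belong to, so they were not chosen apart from the members. The shares are given without a test.

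Chaperone signals varied between the 3 pools about as much as those of other probe sets. The median SD of log2 signal over pools was 0.263 for the 96 measured probe sets, against 0.268 for the 8327 measured probe sets of the array. In the strongest 25% of probe sets by mean signal it was 0.223 for the 35 members and 0.208 for all. Of the members 62 (64.6%) stayed within 1.5-fold over the 3 pools, against 58.3% of all. Fewer cells of a type and less RNA per cell cannot be told apart in these samples.

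No chaperone probe set passed the test for more variation between pools than other probe sets of like signal. The test asks whether a probe set's variance over the 3 arrays exceeds the trend with intensity (limma, Benjamini-Hochberg adjustment over all measured probe sets, threshold 0.05). It called 0 of the 96 members, against 18 of 8327 in all (0.216%). An unadjusted p under 0.05 was found for 5 members (5.21%) and for 445 of all (5.34%). The 5 were Dnajb13, Hsp90aa1, Hspd1, Pdia3 and Dnajc8, and the lowest adjusted p among members was 0.469. Hsp90aa1 passed under 2 of 11 alternatives, given with its values below. The plot of spread against signal shows where they lie.

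**Figure D1:**
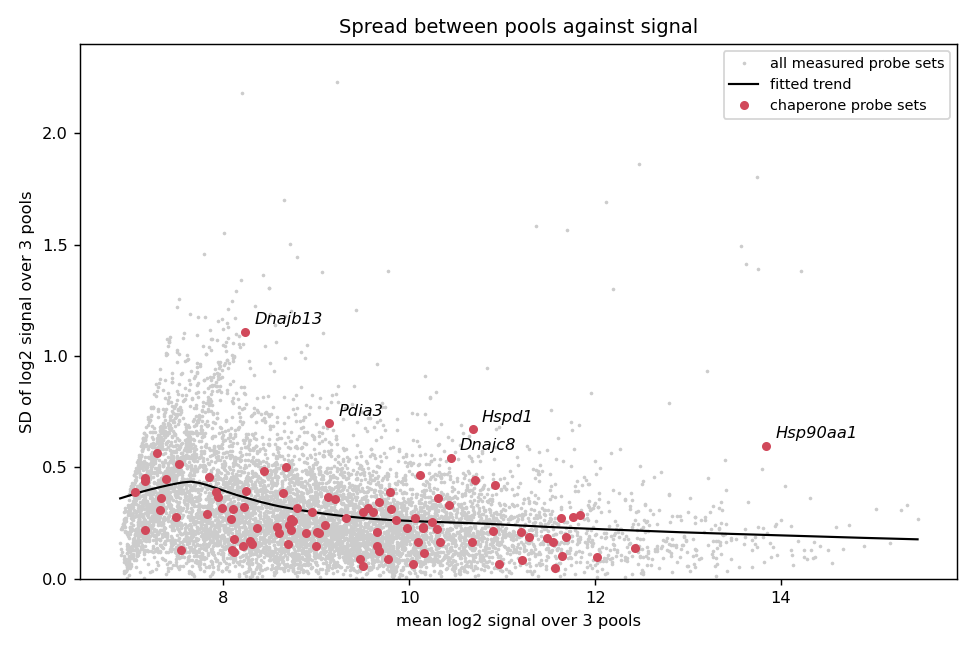
SD of log2 signal over the 3 pools against mean log2 signal for the 8327 measured probe sets (grey), with the 96 chaperone probe sets in red and the fitted trend as a black line. The 5 labelled genes have an unadjusted p under 0.05, and no chaperone probe set passed after adjustment.

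As a group the chaperones tended to be lowest in pool 1 and highest in pool 2. Pool 1 was lowest for 52.1% of the measured members, against 36.2% of all measured probe sets. Pool 2 was highest for 47.9%, against 33.8%. Of the 96 measured probe sets, 67 (69.8%) were lower in pool 1 than in pool 2, against 51.1% of all measured probe sets. Subtracting pool 2 from pool 1 gave a median log2 difference of -0.18, against -0.01 for all. Subtracting pool 3 from pool 1 gave -0.11, with 58 members (60.4%) lower in pool 1, against a median of -0.01 and 51.0% for all. Subtracting pool 3 from pool 2 gave 0.09, with 59 members (61.5%) higher in pool 2, against 0.01 and 50.5%. Each pool is 1 array, and the differences are given without a test. Among the 87 probe sets above the floor on all arrays 61 were lower in pool 1 than in pool 2, so the pattern was also seen where no value was set to a floor. The rod markers ran the same way, with 7 of 7 lower in pool 1 than in pool 2 and a median of -0.48. The Müller glia markers were lower in 3 of 5, with a median of -0.14. The blood markers ran the other way, with 0 of 3 lower and a median of 0.48. The lens markers differed most, with 0 of 10 lower in pool 1 than in pool 2 and a median of 1.84, and with a median of -2.85 for pool 2 against pool 3. The part of lens tissue and of cell makeup in the chaperone shift was not tested.

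**Figure D2:**
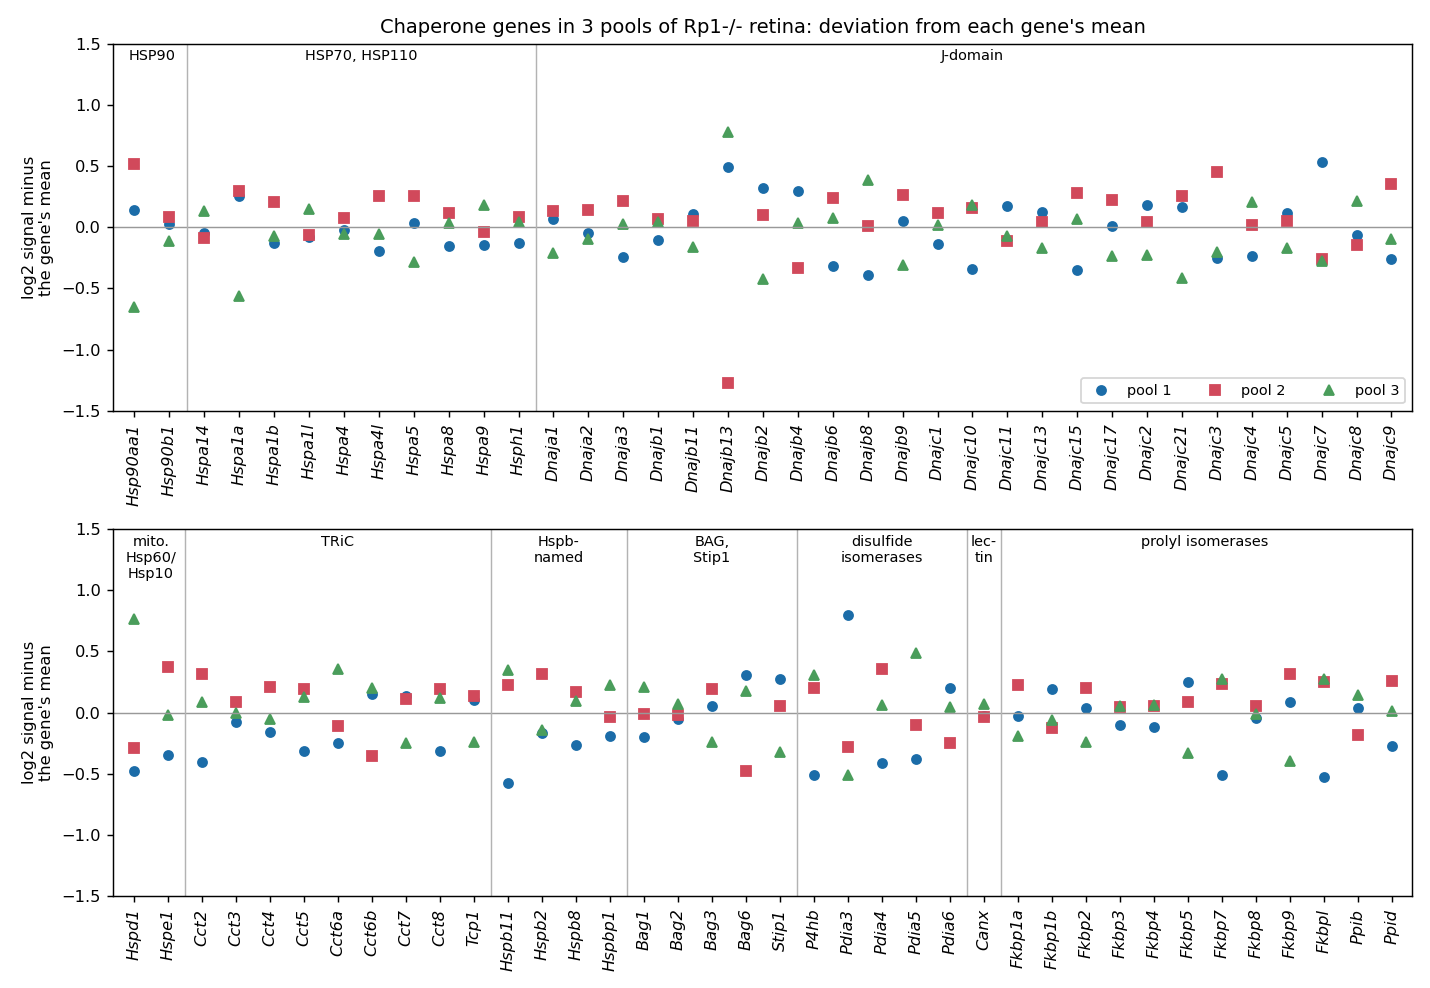
Log2 signal of each of 75 chaperone genes in pools 1, 2 and 3 minus the gene's mean over the pools, with signals under the floor set to it and the measured probe set of highest mean signal for each gene, grouped by family. Blue circles (pool 1) lie mostly below the line in the HSP70, TRiC and Hspb-named families, and Dnajb13 has the widest range.

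Most HSP70 and HSP110 genes were lower in pool 1 than in pool 2, by small differences, and the leading probe sets of the family varied little. Of 10 measured genes 9 were lower in pool 1 than in pool 2, and the median difference was -0.16. The median SD of log2 signal was 0.151, against 0.23 over the 75 member genes. These values use the strongest probe set of each gene, and the weaker sets of Hspa4 had SDs from 0.311 to 0.566. Over all 3 pools the order was less uniform. Pool 1 was lowest in 6 of the 10 genes, against 36.2% of all measured probe sets. Pool 2 was highest in 7, against 33.8%. Hspa8, the constitutive Hsc70, had signals of 4936.0, 5953.5 and 5636.5 in pools 1, 2 and 3. Hsph1, an HSP110 nucleotide exchange factor, had 1041.1, 1213.1 and 1177.0. In both, pool 1 was lowest and the range stayed under 1.5-fold. The mitochondrial HSP70 Hspa9 had 1484.8, 1598.3 and 1854.5, so that pool 1 was again lowest but pool 3 highest. Hspa4l had 988.4, 1351.3 and 1088.1. Hspa14, a ribosome-linked HSP70, was the only 1 of the 10 that was higher in pool 1 than in pool 2, at 269.3, 261.0 and 305.5.

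The heat-inducible HSP70 genes were above the floor in every pool. Hspa1a had 414.4, 427.3 and 235.6, with pool 3 lowest by 1.81-fold (adjusted p = 0.987 by limma). Hspa1b, a near-identical copy beside it, had 253.9, 320.1 and 264.2, and the testis-enriched Hspa1l had 258.3, 261.0 and 303.0. Pool 3 was low in Hspa1a alone of these 3. Because Hspa1a and Hspa1b are nearly the same in sequence, their probe sets may read each other's transcript. Hspa2 had 56.1, 29.8 and 3.7, under the floor in every pool.

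Hsp90aa1, the stress-inducible cytosolic HSP90, had the lowest signal in pool 3. It was at 16122.3, 20971.0 and 9307.4 in pools 1, 2 and 3, spanning 2.25-fold (unadjusted p = 0.00315, adjusted p = 0.469, limma). Pool 2 was highest, and pool 3 lay below both of the others. The adjusted p was 0.0258 without pool 1 and 0.036 when weak probe sets were also tested, and lay above the threshold under the 9 other alternatives, with 0.0258 to 0.984 over all 11. A second Hsp90aa1 probe set, of the i class (a set with fewer probes than usual), was under the floor on all arrays, at 57.9, 25.1 and 67.3. The ER paralog Hsp90b1 had the same order at 4232.6, 4396.8 and 3842.6, but within 1.14-fold.

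Genes of the HSP90 cochaperone machinery did not share a single order. Stip1 (Hop), which bridges HSP70 and HSP90, had 873.4, 750.3 and 579.0, lowest in pool 3 as Hsp90aa1 was but highest in pool 1. Fkbp5, a glucocorticoid-induced HSP90 partner, had the same order at 589.3, 525.5 and 393.1. The HSP90 partner Fkbp4 had 2946.4, 3328.8 and 3345.9, and Ppid (cyclophilin 40) had 765.9, 1106.2 and 934.2, with pool 1 lowest in both. Among cochaperones that the symbol rule leaves out, Cdc37, which loads kinases onto HSP90, had 1454.5, 1260.2 and 1464.9, and Chordc1 had 718.9, 1331.9 and 1020.8. None of these passed the test (limma, adjusted p of 0.987 to 0.996).

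The mitochondrial chaperonin genes share the divergent promoter shown above and did not share an order of pools. Hspd1 (Hsp60) had 1177.0, 1346.9 and 2802.2 in pools 1, 2 and 3, with pool 3 2.38-fold above pool 1 (unadjusted p = 0.00744, adjusted p = 0.602, limma). Hspe1 (Hsp10) had 997.3, 1646.8 and 1250.7, with pool 2 highest (limma, adjusted p = 0.987). Pool 1 was lowest in both. The other Hspd1 set, whose r class means that probe selection rules were relaxed, had 334.7, 254.1 and 235.4, with pool 1 highest and pool 3 lowest, so the high value in pool 3 rests on 1 probe set. The mitochondrial J-domain gene Dnaja3 had 852.2, 1167.7 and 1029.4, in the order of Hspe1.

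The TRiC subunits, which form the ring that folds actin, tubulin and transducin beta, were lower in pool 1 than in pool 2 for 7 of 9 measured genes. The median difference was -0.17, and without the testis form Cct6b it was -0.26 over 8 genes, 7 of them lower. Cct5 had 2786.5, 3958.7 and 3791.2 in pools 1, 2 and 3, Cct4 had 2236.0, 2875.7 and 2407.2, and Cct8 had 857.4, 1219.0 and 1159.6. Cct2 had the widest range of the family at 422.9, 696.7 and 594.7, 1.65-fold. Pool 1 was lowest in all 4 of these. Cct7 ran differently, at 2090.4, 2063.3 and 1604.0, with pool 3 lowest, as it was for Tcp1 at 416.7, 427.4 and 329.8. For Cct6a, whose measured set is of the f class (probes shared within a sequence family), the values were 755.7, 832.0 and 1145.7. Cct6b had 178.0 and 183.7 in pools 1 and 3 and was under the floor in pool 2. The subunits thus did not all keep the same order of pools, and each stayed within 2-fold. No probe set of the 12 passed the test (limma, adjusted p of 0.987 to 0.996).

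Prefoldin, which hands substrates to TRiC, was represented by 5 genes of the cochaperone list. Vbp1 had 4026.6, 4435.6 and 3538.9, Pfdn6 had 1432.4, 1377.7 and 1504.5, and Pfdn2 had 1081.6, 843.7 and 659.8. Pfdn5 was under the floor in pool 3 and Pfdn1 in all pools. Over the whole list of further cochaperones, 14 of 15 genes with a probe set were measured, 7 of the 14 were lower in pool 1 than in pool 2, and the median difference was 0.01. None of their 17 measured probe sets passed the test.

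The J-domain family was the largest, with 25 of 27 genes measured, and it held the widest range of all members. Dnajb13, a J-domain protein of motile cilia and sperm flagella, had signals of 424.0, 108.9 and 515.7 in pools 1, 2 and 3. Pool 2 was under its floor of 124.8, so pool 3 was at least 4.13-fold higher than pool 2 (unadjusted p = 0.00314, adjusted p = 0.469, limma). A second Dnajb13 probe set, of the r class, was under the floor on all arrays at 98.4, 84.2 and 16.3. The first probe set had the order of the lens markers, with pool 3 highest and pool 2 lowest. This order was found for 8 of 96 members (8.33%), against 14.8% of all measured probe sets: probe sets of Bag6, Canx, Cct3, Cct6b, Dnajb13, Dnajc8, Hspa14 and Ppib. Among these 8, only Dnajb13 differed by more than 2-fold, and Cryab, the alpha crystallin that is itself a small heat shock protein, had 847.1, 404.6 and 1536.3. The part of lens tissue in the Dnajb13 signal was not tested.

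By the strongest probe set of each gene, the other J-domain genes ranged from 1.12-fold to 1.76-fold between pools. Dnajb1, the main stress-inducible partner of HSP70, had 658.0, 739.8 and 727.3, and Dnaja2 had 795.0, 901.2 and 766.5. Dnaja1, a farnesylated HSP70 partner, had 2997.3, 3132.5 and 2467.8. Dnajc5 (cysteine string protein), which guards the fusion machinery of synaptic vesicles, had 870.9, 835.1 and 715.6. These 4 ranged from 1.12-fold to 1.27-fold. Dnajb6, whose promoter is printed above, had 2944.9, 4338.1 and 3855.8, and its second probe set had 469.7, 614.2 and 490.9, so pool 2 was highest and pool 1 lowest by both. Dnajb2, a neuronal J-domain protein with ubiquitin-binding motifs, had 500.9, 429.8 and 297.8. Dnajc7 had the same order of pools as Dnajb2, at 1607.1, 926.2 and 914.5, with pool 1 up to 1.76-fold above the others (limma, adjusted p = 0.986). Over the 25 genes, 15 were lower in pool 1 than in pool 2 and the median difference was -0.17.

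Of the HSP70 and J-domain genes of the ER, Hspa5, Dnajb9, Dnajb11, Dnajc3 and Dnajc10 were measured and Hyou1 was not. Hspa5 (BiP) had 3259.9, 3793.8 and 2607.7, spanning 1.45-fold with pool 3 lowest (adjusted p = 0.987 by limma). Its partners Dnajb11 (ERdj3) had 550.6, 528.7 and 454.5 and Dnajc10 (ERdj5, a reductase) 615.7, 872.8 and 888.7. Dnajb9 (ERdj4) was at 234.7, 271.9 and 183.0 by 1 probe set and at 154.9, 223.2 and 168.5 by another, with pool 2 highest in both. Hyou1, an ER relative of HSP110, had 8.4, 6.6 and 4.4, under the floor. Of the 6 genes with an ER stress element in their promoter window, Calr was under the floor, and the leading probe sets of Canx, Dnajc3, Hsp90b1, Hspa5 and Pdia6 ranged from 1.08-fold to 1.63-fold without a shared order.

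Of the disulfide isomerases, Pdia3 differed most. Pdia3 (ERp57, the partner of calnexin and calreticulin) had 978.4, 464.4 and 394.8, with pool 1 highest and 2.48-fold above pool 3 (unadjusted p = 0.0155, adjusted p = 0.735, limma). P4hb (PDI) had 1174.7, 1922.5 and 2063.3 by an r-class set, with pool 1 lowest, and its other set was not measured, at 128.0, 133.3 and 17.0. Pdia4 (ERp72) had 663.9, 1134.3 and 922.8, and Pdia5 had 127.8, 155.1 and 234.0, again with pool 1 lowest. Pdia6 (P5) had 1304.6, 952.7 and 1167.7 by the leading set, with pool 2 lowest. The 5 genes thus split 3 against 2 between pools 1 and 2, and their median SD of 0.443 was above that of the members as a whole. Canx (calnexin), which holds glycoproteins together with Pdia3, had 710.4, 706.1 and 760.0, a range of 1.08-fold.

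Genes of the unfolded protein response and of folding in the ER ran both ways between pools 1 and 2, and their difference from the chaperones was not tested. Of 9 measured genes of the response 4 were lower in pool 1 than in pool 2, with a median of 0.02. Asns had 1438.4, 2309.7 and 2237.2, with pool 1 lowest as in many chaperones. Atf4 had 6404.2, 5999.6 and 7125.8, Xbp1 663.6, 1059.0 and 736.4, Ddit3 (CHOP) 450.3, 528.8 and 417.2, and Atf6, a membrane-bound sensor, 305.6, 301.3 and 302.9. Atf6 stayed within 1.01-fold, and Trib3 and Edem1 were under the floor. Of 6 ER folding enzymes 1 was lower in pool 1, with a median of 0.09. None of the 11 and 8 measured probe sets of these lists passed the test.

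Prolyl isomerases included the steadiest chaperone probe set among the strong signals. Fkbp8, an anti-apoptotic FKBP of the mitochondrial outer membrane, had 2938.6, 3136.4 and 3001.6, an SD of 0.048 on the log2 scale. Fkbp1a (FKBP12, the rapamycin target) had 2300.3, 2739.9 and 2058.3, Fkbp2 had 1294.1, 1447.1 and 1066.0 and Ppib (cyclophilin B of the ER) 3061.5, 2628.1 and 3292.8. The ranges of these 3 lay between 1.25-fold and 1.36-fold. Fkbpl had 160.2, 274.7 and 279.2, with pool 1 lowest, and Fkbp7 had 168.6 and 172.7 in pools 2 and 3 and was under the floor in pool 1. Of 12 measured genes 9 were lower in pool 1 than in pool 2, with a median of -0.17. After Fkbp8, the steadiest of the strongest 25% of probe sets were those of Bag2 (0.066), Hspa4 (0.068), Cct3 (0.083), Hsp90b1 (0.100), Fkbp4 (0.104), Hsph1 (0.117) and Hspa8 (0.139), as SDs of log2 signal.

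All 4 measured genes with an Hspb name were lower in pool 1 than in pools 2 and 3. Hspb11, which is the intraflagellar transport subunit Ift25 and not a canonical small heat shock protein, had 274.1, 478.2 and 518.2, spanning 1.89-fold (adjusted p = 0.987 by limma). Hspb8, the small heat shock protein that works with Bag3 in selective autophagy, had 273.6, 368.4 and 350.3. Hspb2 had 567.8, 792.8 and 578.1 by a g-class set (probes shared with another set) and 11.7, 11.4 and 37.3 by another, under the floor. Hspbp1, an HSP70 nucleotide exchange factor, had 703.1, 781.7 and 940.2. The median log2 difference over these 4 genes of unlike function was -0.46 from pool 2 to pool 1 and -0.39 from pool 3 to pool 1.

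The BAG exchange factors differed among themselves. Bag1 had 412.8, 469.3 and 549.2, Bag3 had 147.3 and 162.4 in pools 1 and 2 and was under the floor in pool 3, and Bag6 (Scythe, a chaperone for tail-anchored proteins) had 2396.0, 1390.8 and 2188.7 by the leading probe set. Bag2, a modulator of the ubiquitin ligase Stub1 (CHIP), had 1010.1, 1035.5 and 1104.0. Stub1 itself had 1726.2, 1133.8 and 1507.9, lowest in pool 2 as the leading Bag6 set was. Over Bag1, Bag2, Bag3, Bag6 and Stip1 the median difference of pool 1 minus pool 2 was -0.04.

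A difference of more than 2-fold between any 2 pools was seen for 7 of 96 members (7.29%), against 13.2% of all measured probe sets. These shares are not matched on signal. Of the measured members 36.5% were in the strongest 25% of probe sets, where the median SD over all was 0.208, against 0.268 for all measured probe sets. The count of 7 also rests on the floor: with a floor at the median control it was 18 of 110 (16.4%), against 25.5% of all. It was 4 of 87 (4.60%, against 9.32%) above the floor on all arrays and 4 of 76 (5.26%, against 12.4%) without suffixed sets. With the floor as set here, the 7 were sets of Dnajb13, Dnajc3, Dnajc8, Hsp90aa1, Hspa4, Hspd1 and Pdia3. Between pools 1 and 2, 3 were higher in pool 1 (2.73% of all probe sets were) and 1 was lower (3.52% of all). Between pools 1 and 3, 1 was higher in pool 1 (3.11% of all) and 2 were lower (3.81% of all). Between pools 2 and 3, 1 was higher in pool 2 (2.73% of all) and 2 were lower (2.38% of all). Each pool is 1 array, so these folds have no replicate.

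**Figure D3:**
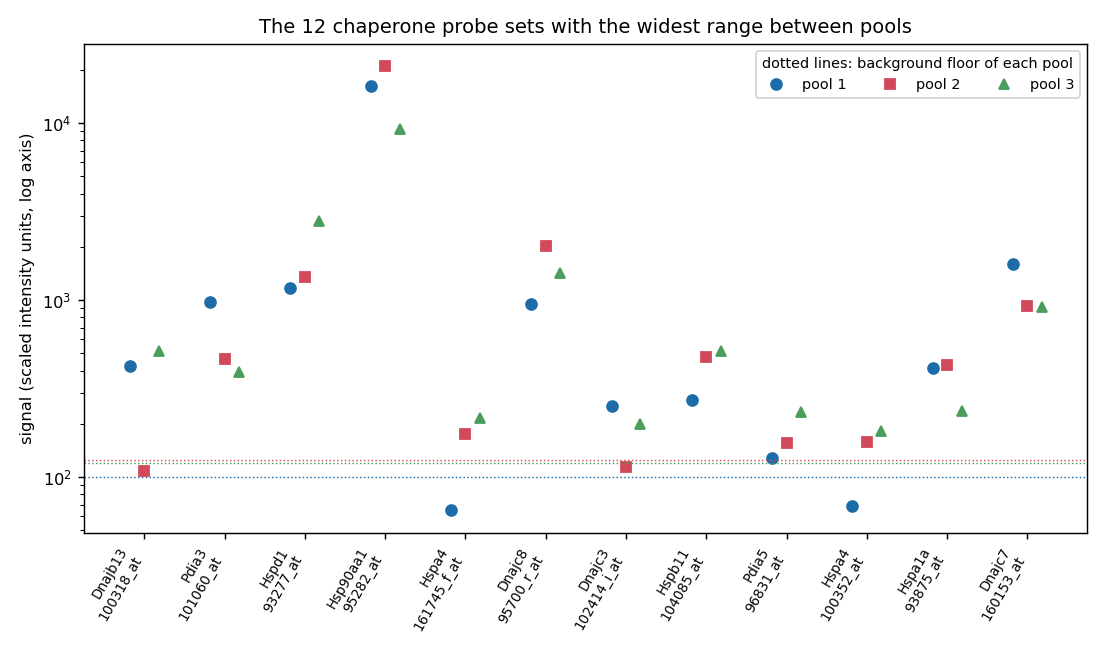
Signal in pools 1, 2 and 3 (log axis, scaled intensity units) of the 12 chaperone probe sets with the widest range between pools, with the background floor of each pool as a dotted line. No pool is the high one throughout, and pool 1 or pool 2 lies under its floor for Dnajb13, Dnajc3 and both sets of Hspa4.

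Where a chaperone gene had several probe sets, they often disagreed on the order of pools. Of 14 genes with 2 or more measured probe sets, the pool of highest signal was the same in all sets for 3 (Dnajb6, Dnajb9 and Dnajc2) and differed for 11. The same count over all genes of the array was not made, so this is not read as a trait of chaperones. Dnajc2 (a ribosome-bound J-domain protein) had 584.6, 531.3 and 438.7 by 1 set and 472.5, 446.1 and 345.8 by the other. Dnajc3 (p58IPK, an ER cochaperone that restrains the kinase Eif2ak3) had 253.6, 414.6 and 263.4 by 1 set, with pool 2 highest. Its i-class set had 251.7 and 199.3 in pools 1 and 3 and was under the floor in pool 2, so the sets ran opposite ways. Dnajc8, a splicing-linked J-domain protein, had 953.1, 2024.9 and 1415.3 by an r-class set and 3157.4, 2985.2 and 3827.7 by an f-class set. The 2-fold difference of Dnajc8 between pools 1 and 2 was thus not seen in its stronger probe set.

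Hspa4 (an HSP110 exchange factor) shows how wide this disagreement was, with 5 measured probe sets. The strongest had 1981.5, 2114.2 and 1929.6, within 1.10-fold. The others had 570.0, 393.4 and 385.1, then 257.0, 349.6 and 230.6. The weakest pair were under the floor in pool 1, at 174.9 and 214.6 in pools 2 and 3 in the first set and 158.0 and 183.4 in the second. Only the first of these passed 2-fold, and it is of the f class. For Bag6, 3 of 4 sets were lowest in pool 2, and the fourth, at 429.2, 505.3 and 347.8, was highest there. For Pdia6, 2 sets were highest in pool 1, and the third had 272.2, 335.2 and 331.8. The pairs for Bag2, Canx, Cct5 and Fkbp4 and the sets of Cct3 differed in the highest pool, with each set within 1.64-fold. Of the 30 member probe sets with a suffix class, 20 were measured.

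**Figure D4:**
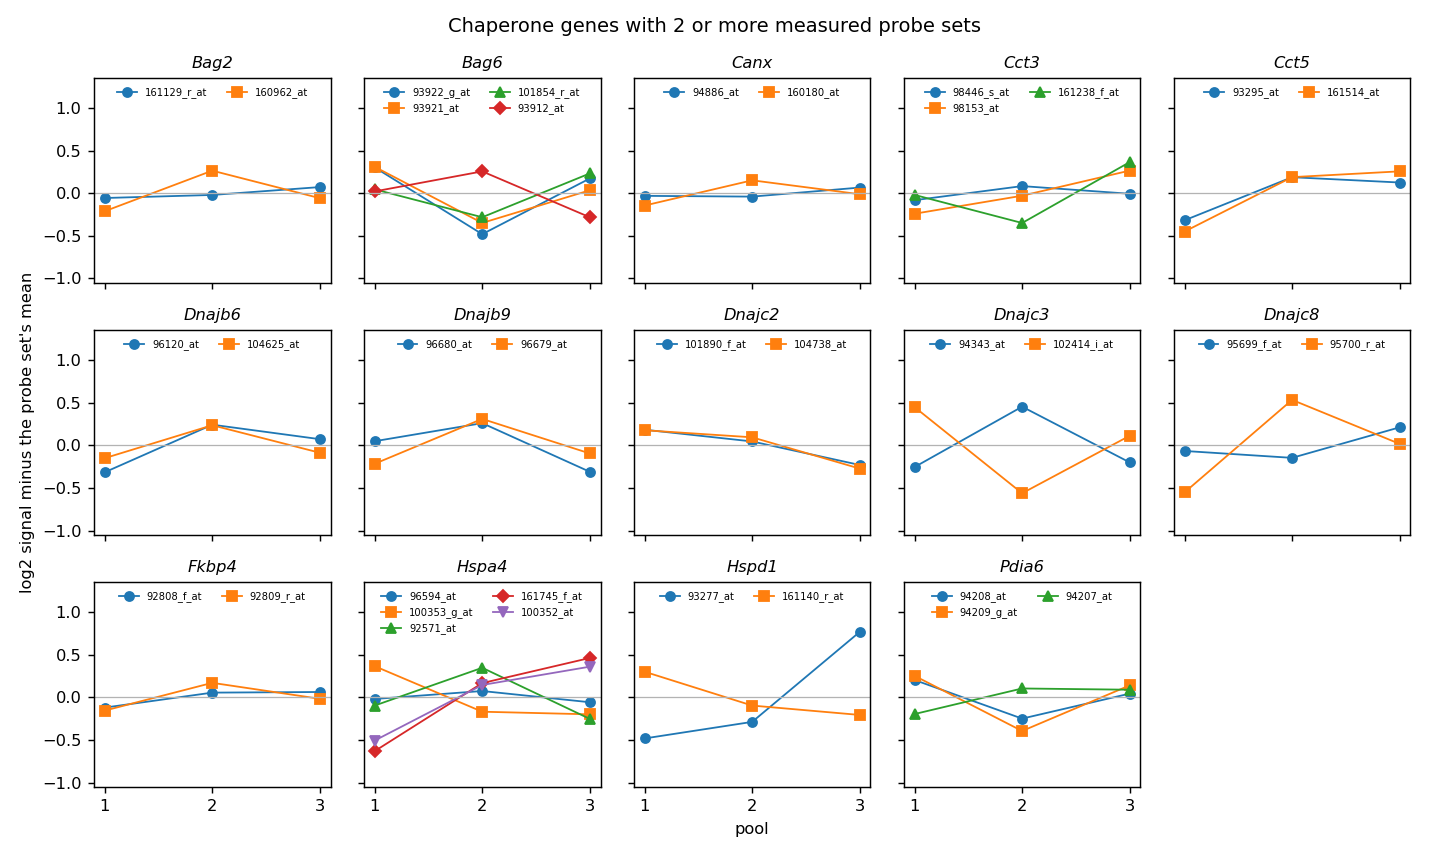
Log2 signal in each pool minus the mean of the probe set, with signals under the floor set to it, for the 14 chaperone genes with 2 or more measured probe sets. Lines join the values of 1 probe set and carry no order of pools. The sets of Dnajb6 and Dnajc2 share the highest and the lowest pool, and those of Dnajb9 share the highest pool only. Those of Dnajc3, Hspd1 and Hspa4 run apart.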

How the data were processed

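The values are the authors' deposited intensity signals, linear, 1 for each probe set on each array. Of the software that made them, nothing is given in the sources used here. These deposited intensity values had been scaled: means after trimming 2% at each end were 500.26, 500.25 and 500.26, so no further scaling was done. A blank row and 66 control probe sets were left out. The annotation gave 1 symbol to 10833 probe sets, several to 396 and none to 1193, and all 118 members kept their symbol in RefSeq's gene table (GRCm38.p6). The floor on each array was the 90th percentile of 19 bacterial and yeast controls. Lower signals were raised to the floor before log2 was taken. Variability was tested with limma 3.58.1 in R 4.3.3 (intercept-only fit, robust F fit to the variances with an intensity trend, Benjamini-Hochberg over 8327 probe sets), after a check on simulated data. Python 3.11.15, pandas 2.3.3, numpy 2.4.6, scipy 1.17.1 and matplotlib 3.10.9 were used otherwise. Families use the measured probe set of highest mean signal per gene. Values are printed for the 12 widest ranges, the 8 steadiest strong sets, up to 3 strongest genes per family, genes with several measured sets, and further family members. The members, lists and tests were chosen with earlier results of these data known, and the promoters printed and the genes beyond the rule were chosen after their values were seen. Grpel1, which is mitochondrial, was taken out of the ER enzyme list. The number of arrays limits the precision.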

Additional observations from a re-analysis of the deposited data

How the results depend on the processing

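The 3 median differences of the members kept their sign under each alternative that kept both pools. The count of members lower in pool 1 than in pool 2 (67 of 96), whose alternatives were chosen after seeing the data, was 56 of 76 without suffixed probe sets and 61 of 87 above the floor on all arrays. With no filter it was 87 of 118, but 20 of those came from the 22 sets that were not measured, most of them set to a floor that is lower in pool 1, and 64.7% of all probe sets were then lower in pool 1. The number of varying probe sets (18) was 11 with log2(signal + 50), 52 with no filter, 6 with an ordinary variance fit, 0 with no intensity trend (an unadjusted p under 0.05 was found for 445 in the reported fit), and 4 to 40 without each pool. The number of members among them (0) was 1 with no filter and 0 to 1 without each pool, each time Hsp90aa1. Members past 2-fold in any pair (7) were 18 of 110 with a floor at the median control, where 25.5% of all probe sets passed. They were 4 of 87 if only probe sets above the floor on all arrays were kept (9.32% of all). Without suffixed probe sets they were 4 of 76 (12.4% of all). Under that lower floor they were 8, 13 and 7 between pools 1 and 2, 1 and 3, and 2 and 3 (4, 3 and 3 as reported). Between pools 1 and 2 they were 2 with log2(signal + 50), 2 above the floor on all arrays and 2 without suffixed sets. Members in the order of the lens markers (8) were 5 without suffixed sets. For single pairs and for this order, shares over all probe sets under the alternatives are not given. These counts are therefore not read as a trait of chaperones. The causes were not tested. No paired analysis was possible because the arrays form 1 group. Signals near the floor limit what weak probe sets can show.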
